A study of Mus musculus with 12 samples.

Results

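Apolipoproteins are the proteins that coat lipoprotein particles, and the 10 genes described here encode 9 of them, Apoa1, Apoa2, Apoa4, Apoa5, Apob, Apoc2, Apoc3, Apoe and Apoh, together with Mttp, which loads lipid onto Apob. They were taken by symbol from a table of 35275 mouse genes, and all 10 were found once. Their RNA was measured by sequencing in 12 mouse samples given as liver, in 4 groups of 3 that the series design text calls biological replicates. KO HFD and KO chow carried a label of liver knockout of Hnf4a and were fed a high fat diet or vivarium chow, and WT HFD and WT chow were wild type on the same diets. The sources used here give no strain, age, sex, knockout method or length of feeding. Per the series title, the question was what the diet and the loss of Hnf4a do to the genes the liver expresses.

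The liver exports triglyceride in very low density lipoproteins (VLDL). Each particle holds a single molecule of apolipoprotein B, to which the microsomal triglyceride transfer protein, the product of Mttp, adds lipid in the endoplasmic reticulum. Smaller exchangeable apolipoproteins then move between particles, and Apoa1 and Apoa2 are proteins of high density lipoproteins (HDL). Apoc2 activates lipoprotein lipase, Apoc3 restrains lipid clearance, and Apoe is the ligand for uptake receptors. Hnf4a encodes a nuclear receptor of hepatocytes, and several of these genes are known targets of it.

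The unit is FPKM, in which fragment counts are divided by gene length and library size, so levels can be compared between genes. The libraries held 15705196 to 20311766 reads each on genes. The RNA level of the targeted gene did not follow the labels: Hnf4a read 108, 98.8 and 138 FPKM in the libraries KO HFD 1 to 3. The KO chow libraries held 158, 132 and 130 FPKM of it. In WT HFD 1 to 3 it stood at 133, 116 and 120 FPKM, and in WT chow 1 to 3 at 126, 75.8 and 0.0973 FPKM. These values are for the whole gene, so loss of single exons was not tested. Genotype below therefore means the label. WT chow 2 and WT chow 3 also stood apart. The summed level of 6 hepatocyte markers (Alb, Ttr, Tf, Ahsg, Fgb and Cps1) was 17.1 FPKM in WT chow 3, against 25998 to 54567 FPKM in 10 libraries. WT chow 3 instead held 12924 FPKM of 6 adipocyte markers (Ucp1, Cidea, Adipoq, Plin1, Lep and Fabp4), against 5.64 to 55.9 FPKM in those 10. In WT chow 2 the hepatocyte sum was 20696 FPKM, with 3 of the 6 markers under every one of the 10. Alb read 7604 FPKM (lowest of the 10: 12811 FPKM), Ttr 3504 FPKM (4798 FPKM) and Cps1 144 FPKM (304 FPKM). Ahsg, at 6269 FPKM, instead exceeded the 5571 FPKM that was its highest level there, while Tf and Fgb lay within range. The sum without Alb, 13092 FPKM, was inside the 12266 to 16453 FPKM of the 10, but it adds markers that moved in opposite directions. The adipocyte markers of WT chow 2 summed to 120 FPKM, more than in any of the 10, but nearly all of it was Fabp4 (78.6 FPKM) and Cidea (41.7 FPKM). Ucp1, Adipoq and Lep were at 0 in WT chow 2 and Plin1 at 0.194 FPKM. These were all higher in WT HFD 2, at 3.20, 3.50, 0.298 and 2.36 FPKM in the same order. Mitochondrial genes took 3.39% of the reads of WT chow 2 and 37.5% of those of WT chow 3, against 5.14 to 6.26% in the 10. Each test is therefore given for all 12 libraries and for the 10 without WT chow 2 and 3. In bulk tissue, fewer cells of a type and less RNA per cell cannot be told apart.

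In the 10 libraries the members took 5.68 to 7.52% of all reads on genes, but they ranged from the most abundant genes to Mttp, ranked between 1067 and 2324 by FPKM. Apoe, whose product clears remnant particles, was the highest, with a median of 24810 FPKM, and it ranked between 1st and 3rd of all genes by FPKM. Apoa2 followed with 19040 FPKM and Apoa1 with 11382 FPKM, then Apoc3 with 3264 FPKM and Apoh, which encodes the phospholipid-binding beta-2-glycoprotein I, with 2180 FPKM. Apoa5 (538 FPKM), Apoc2 (466 FPKM) and Apob (260 FPKM) were lower, and Apoa4 (69.3 FPKM) and Mttp (38.4 FPKM) were the lowest. Neighbours in this order had overlapping ranges except Apoa1 (10306 to 14984 FPKM) over Apoc3 (2304 to 4673 FPKM), and Apoh (1811 to 2415 FPKM) over Apoa5 (283 to 802 FPKM). The genes differed in how much they varied over the 10 libraries. The highest library exceeded the lowest 1.33-fold for Apoh, 1.45-fold for Apoa1 and 1.502-fold for Apoe, but 4.32-fold for Apoc2 and 22.03-fold for Apoa4.

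**Figure D1:**
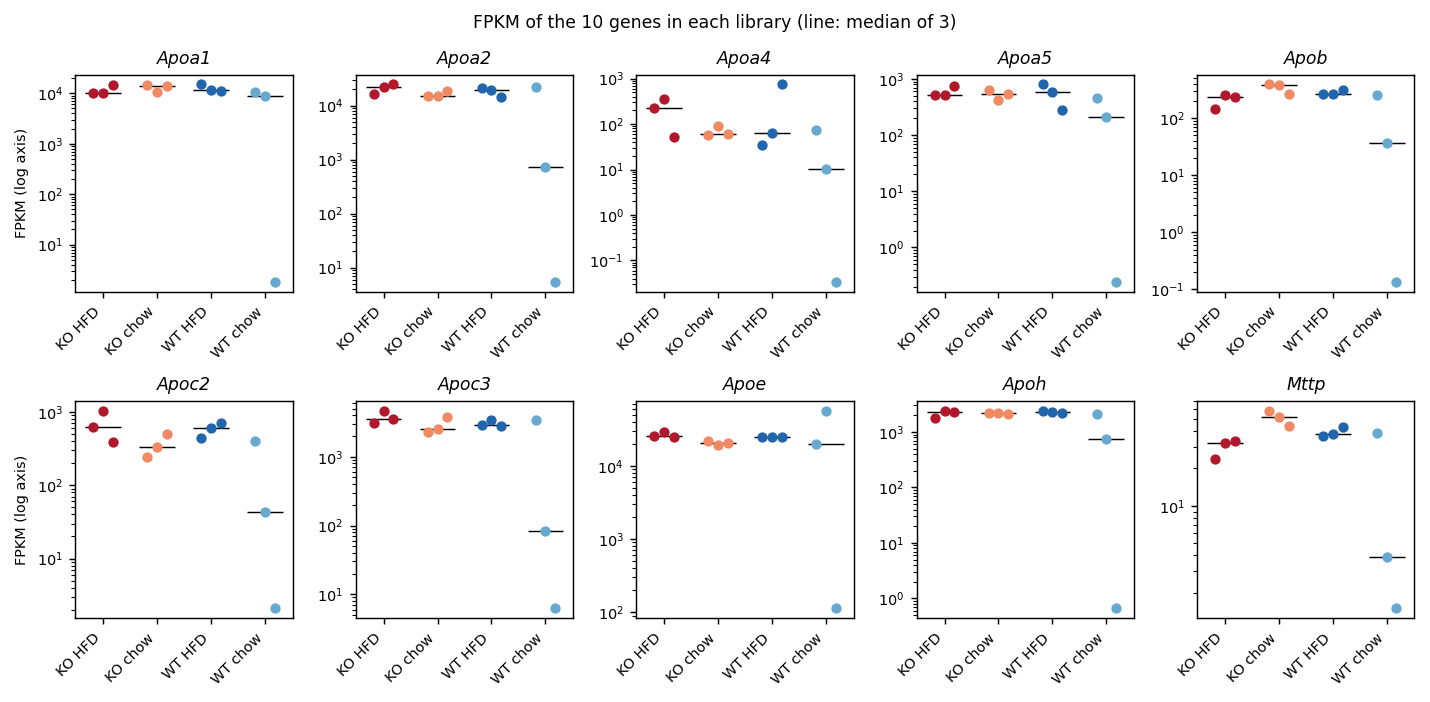
FPKM (log axis) of each of the 10 genes in each library, by group; points are libraries 1 to 3 from left to right and lines are medians of 3. WT chow 3 is the lowest point in every panel, and WT chow 2 lies low for Apoa2 and Apoc3 but highest for Apoe, at 56632 FPKM.

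Of the genes, 4 lie in 1 stretch of chromosome 9 (GRCm38). There, Apoa1 spans 46228580 to 46230466, Apoc3 46232933 to 46235636, Apoa4 46240696 to 46243459 and Apoa5 46268633 to 46271919, with Apoc3 on the minus strand and the others on the plus strand. Another pair, Apoc2 (19671579 to 19681423) and Apoe (19696109 to 19699166), lies on the minus strand of chromosome 7. Neighbours did not share a level or a spread: within the chromosome 9 cluster the medians ran from 69.3 FPKM for Apoa4 to 11382 FPKM for Apoa1. Apob lies on chromosome 12 (7977648 to 8016835, plus strand), Mttp on chromosome 3 (138089855 to 138143388, minus strand), Apoa2 on chromosome 1 (171225054 to 171226379, plus strand) and Apoh on chromosome 11 (108343354 to 108414396, plus strand). All are annotated as protein-coding.

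The assembly genes Apob and Mttp were the 2 of 10 members lower in every KO HFD library than in every KO chow and every WT HFD library, as were 9.37% of all genes. Their promoter windows are shown because, outside WT chow, both genes were lowest in KO HFD, and that of Apoa4 because Apoa4 varied most. Each runs from 250 bases before to 50 bases after a RefSeq transcription start on GRCm38.p6, and is read on the strand of the gene. Capitals mark matches on either strand to CAAAGNNCA, a short form of the HNF4 site, or to TATAAA. The windows are chr12:7977427-7977726 (plus) for Apob, chr3:138143369-138143668 (minus) for Mttp and chr9:46240594-46240893 (plus) for Apoa4.
Apob: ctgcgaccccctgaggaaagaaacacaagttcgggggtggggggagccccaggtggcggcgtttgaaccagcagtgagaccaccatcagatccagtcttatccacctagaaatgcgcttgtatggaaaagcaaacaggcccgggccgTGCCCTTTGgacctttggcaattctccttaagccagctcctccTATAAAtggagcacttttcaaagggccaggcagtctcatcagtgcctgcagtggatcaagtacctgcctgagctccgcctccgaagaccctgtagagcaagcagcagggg
Mttp: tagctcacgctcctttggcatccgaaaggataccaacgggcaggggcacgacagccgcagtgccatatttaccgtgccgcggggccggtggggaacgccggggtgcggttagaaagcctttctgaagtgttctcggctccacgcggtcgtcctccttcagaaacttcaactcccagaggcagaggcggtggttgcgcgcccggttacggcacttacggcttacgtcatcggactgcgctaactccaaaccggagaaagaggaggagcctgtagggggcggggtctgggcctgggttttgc
Apoa4: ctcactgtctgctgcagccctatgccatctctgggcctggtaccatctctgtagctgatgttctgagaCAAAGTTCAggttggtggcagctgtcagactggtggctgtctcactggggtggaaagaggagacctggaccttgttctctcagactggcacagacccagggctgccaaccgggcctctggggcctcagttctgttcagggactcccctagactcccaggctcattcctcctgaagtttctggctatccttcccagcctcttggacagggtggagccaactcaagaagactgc

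RefSeq windows were found for 9 of the 10 genes, all but Apoc3. The start used lay 51943 bases from the deposited gene start for Apoh and 3482 bases for Apoc2, against 0 to 148 bases for the others. CAAAGNNCA was present in 3 of the 9, those of Apoa4, Apob and Apoh, and in 6.36% of all 32851 mouse windows in the same table. Counted from the start, the match in Apob lay at −103 to −95 on the opposite strand, and that in Apoa4 at −182 to −174 on the strand of the gene. CAAAGTCCA, a stricter HNF4 form that CAAAGNNCA includes, was in 0 of the 9 and in 0.475% of all windows. TATAAA was in 3 of the 9, in Apoa2, Apoa5 and Apob, against 13.6% of all windows. GTTAAT, part of an HNF1 site, was in 1 of the 9, that of Apoc2, against 7.10% of all. TCACNCCAC, a sterol element, was in 0 of the 9 and in 1.24% of all. The Mttp window held none of these letters on either strand. These matches describe letters and not binding.

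Outside WT chow, Mttp was lowest in KO HFD. It stood at 23.9, 32.3 and 33.5 FPKM in KO HFD 1 to 3, against 58.5, 51.9 and 44.0 FPKM in KO chow 1 to 3. WT HFD 1 to 3 lay between them at 36.2, 38.2 and 43.2 FPKM, and WT chow 1 to 3 held 38.6, 3.85 and 1.49 FPKM. Every KO HFD library lay below every KO chow and every WT HFD library. The means were 29.9 ± 5.25 FPKM in KO HFD and 51.5 ± 7.23 FPKM in KO chow (SD, n = 3 each).

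Apob showed the same order in the groups labelled knockout. KO HFD 1 to 3 held 142, 258 and 234 FPKM, against 390, 383 and 261 FPKM in KO chow 1 to 3. WT HFD 1 to 3 held 260, 269 and 315 FPKM, and WT chow 1 to 3 held 253, 36.0 and 0.135 FPKM. The KO HFD libraries lay below all KO chow and WT HFD libraries, but by a narrow margin: 258 FPKM in KO HFD 2 stood against 260 FPKM in WT HFD 1 and 261 FPKM in KO chow 3. KO HFD 1 was the lowest of the 10 libraries for both genes, and KO chow 1 the highest for both.

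**Figure D2:**
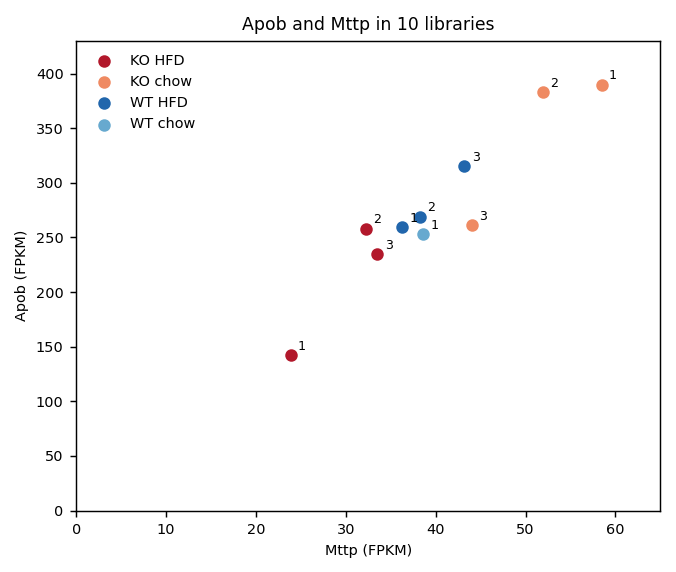
Apob FPKM against Mttp FPKM in the 10 libraries without WT chow 2 and 3, both axes linear from 0; numbers are replicates. KO HFD lies at the lower left, with KO HFD 1 at 23.9 and 142 FPKM, and KO chow 1 and 2 lie at the upper right.

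For the diet within the knockout label, KO HFD minus KO chow, 0 of 10 members passed in the limma fit of 12 libraries (threshold of 0.05 on the Benjamini-Hochberg adjusted p over 12251 genes). In that fit 0.155% of all genes passed, 0 members had an unadjusted p under 0.05 (7.54% of all genes), and limma-voom on reads recovered from the FPKM called 0 members. In the fit of 10 libraries Mttp fell, with a log2 difference of −0.77 (SE 0.17, adjusted p = 0.0371), and it was the only member called. There 7.76% of all genes passed, 1.52% as higher and 6.24% as lower, so 1 of 10 is near the background. At an unadjusted p under 0.05 there were 3 members in this fit, where 29.2% of all genes were. Apob stood at −0.72 (SE 0.25, adjusted p = 0.0932) and did not pass. With no other libraries than KO HFD and KO chow in the fit, Mttp did not pass either (adjusted p = 0.102). By overlap, 2 members were lower in every KO HFD library than in every KO chow library, Apob and Mttp, where 21.6% of all genes were. The Mttp call in 10 libraries rested on single libraries: leaving out KO chow 3 gave an adjusted p of 0.0235, and leaving out any 1 of the other 8 outside WT chow gave 0.0513 to 0.146. Its log2 difference stayed between −0.97 and −0.62 in all 33 alternatives.

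The remaining members did not pass in this comparison in either fit. Apoe, with 25253, 29234 and 24837 FPKM in KO HFD 1 to 3 against 22049, 19469 and 20428 FPKM in KO chow 1 to 3, was the only member higher in every KO HFD library, where 9.98% of all genes were. Its log2 difference was 0.35 (SE 0.29, adjusted p = 0.445, limma on 10 libraries). Apoc2, the lipase activator, had the largest difference after Apoa4, at 0.87 (SE 0.38, adjusted p = 0.171, limma on 10 libraries). Over the 10 members the median log2 difference was 0.26, against −0.06 over all genes tested, with 6 members higher and 4 lower by mean.

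Among the HDL proteins, Apoa1 and Apoa2 were steady outside WT chow. Apoa1, the main HDL scaffold, averaged 11691 ± 2372 FPKM in KO HFD, 12952 ± 2230 FPKM in KO chow and 12583 ± 2090 FPKM in WT HFD (SD, n = 3 each). Apoa2 averaged 21005 ± 4329, 16166 ± 2279 and 18263 ± 3625 FPKM in the same order of groups. WT chow 1 held 10685 FPKM of Apoa1 and 21904 FPKM of Apoa2. KO HFD, KO chow and WT HFD overlapped for both genes.

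Apoa4, which encodes a lipid-binding protein of chylomicrons and HDL that is known to rise in fatty mouse liver, varied widely within groups. KO HFD 1 to 3 held 231, 358 and 53.0 FPKM, against 56.6, 89.9 and 60.7 FPKM in KO chow 1 to 3. WT HFD 1 to 3 held 33.8, 63.3 and 746 FPKM, and WT chow 1 to 3 held 75.3, 10.3 and 0.0334 FPKM, the last of these from 1 read. The 3 highest libraries were all on the high fat diet, while the other 3 on that diet lay at 33.8 to 63.3 FPKM. The log2 difference for KO HFD minus KO chow was 1.27 (SE 1.05, adjusted p = 0.459, limma on 10 libraries). In the GENCODE M21 annotation 632 of the 1815 exonic bases of Apoa4 overlap Gm10680 on the opposite strand, and no source used here gives the strand setting of the counting. Absorptive cells of the gut also make Apoa4, Apob and Mttp. Of 6 enterocyte markers (Fabp2, Vil1, Alpi, Sis, Lct and Cdh17) the summed level was 65.8 to 133 FPKM in KO HFD, 34.0 to 46.7 FPKM in KO chow and 79.6 to 109 FPKM in WT HFD, nearly all of it Fabp2. Sis was at 0.435, 0.123 and 0.238 FPKM in KO HFD 1 to 3 and at 0 in KO chow and WT HFD. WT chow 1 held 72.3 FPKM of the 6, with Vil1 at 0.226, Cdh17 at 0.220, Alpi at 0.0233 and Sis at 0 FPKM. In all, 0 of the 6 were at 0 throughout KO HFD, 3 throughout KO chow and 4 throughout WT HFD, and their part in these values was not tested. The 6 pancreatic acinar markers (Ctrb1, Prss2, Pnlip, Cpa1, Cel and Cela2a) summed to 37.0 to 64.6 FPKM in KO HFD, against 0.357 to 0.736 FPKM in KO chow and 0.481 to 0.733 FPKM in WT HFD, where 5 of the 6 were at 0. In WT chow 1 to 3 they summed to 4.93, 0.794 and 0 FPKM, with Ctrb1 at 4.47 FPKM in WT chow 1. The 6 cardiac and skeletal muscle markers (Myh6, Myl2, Actc1, Tnnt2, Acta1 and Ckm) summed to 0.111 to 0.289 FPKM in KO HFD, with Myh6 and Myl2 at 0, against 5.01 to 16.6 FPKM in KO chow and 4.90 to 72.7 FPKM in WT HFD. Their sum in WT chow was 23.7 to 29.7 FPKM. The part of either list in the KO HFD values of any member was not tested.

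The regulators of lipoprotein lipase, the enzyme that unloads triglyceride from particles, differed in spread. Apoa5, which favours triglyceride clearance, averaged 600 ± 133 FPKM in KO HFD, 536 ± 107 FPKM in KO chow and 555 ± 261 FPKM in WT HFD (SD, n = 3 each). Within WT HFD it stood at 802, 580 and 283 FPKM, and the library lowest in Apoa5, WT HFD 3, was the one highest in Apoa4. Apoc3, the inhibitor, averaged 3772 ± 805, 2863 ± 773 and 3059 ± 302 FPKM in KO HFD, KO chow and WT HFD. Apoc2, the activator, stood at 614, 1032 and 383 FPKM in KO HFD 1 to 3, against 239, 335 and 498 FPKM in KO chow 1 to 3, while WT HFD 1 to 3 held 433, 599 and 703 FPKM. KO HFD and KO chow overlapped for Apoc2 and Apoc3. Of the exonic bases of Apoc2, 646 of 813 are shared with the same-strand gene Gm44805 in GENCODE M21, so its level may include reads of that transcript. Apoh was the least variable member, at 2137 ± 287 FPKM in KO HFD, 2152 ± 49.5 FPKM in KO chow and 2287 ± 127 FPKM in WT HFD (SD, n = 3 each).

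For genotype on the high fat diet, KO HFD minus WT HFD, no member passed in either fit. In limma 0 of 10 passed with 12 libraries (0.155% of all genes, 0 members at an unadjusted p under 0.05 where 1.27% of all genes were, and 0 by limma-voom) and 0 of 10 with 10 libraries (0.18% of all genes, 1 member at an unadjusted p under 0.05 where 12.5% of all genes were). That member was Mttp, with a log2 difference of −0.39 (SE 0.17, adjusted p = 0.386, limma on 10 libraries). Apob stood at −0.45 (SE 0.25, adjusted p = 0.467, limma on 10 libraries). Both were lower in every KO HFD library, where 12.4% of all genes were, and no member was higher in every one, where 7.37% were. The median over the members was 0.11, against −0.03 over all genes. Apoe agreed closely among the WT HFD libraries, at 24970, 24809 and 24811 FPKM, against 25253, 29234 and 24837 FPKM in KO HFD. The 6 hepatocyte markers summed to 25998 to 37580 FPKM in KO HFD, against 44124 to 54567 FPKM in WT HFD and 30321 to 34123 FPKM in KO chow. The gap to WT HFD was in Alb, at 12811 to 21127 FPKM in KO HFD against 29905 to 41503 FPKM in WT HFD. The other 5 markers summed to 13186 to 16453 FPKM in KO HFD and 13064 to 15168 FPKM in WT HFD, which overlap. KO HFD takes part in this comparison and in the diet comparison above, so the low Mttp and Apob values are the same libraries seen from both sides.

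**Figure D3:**
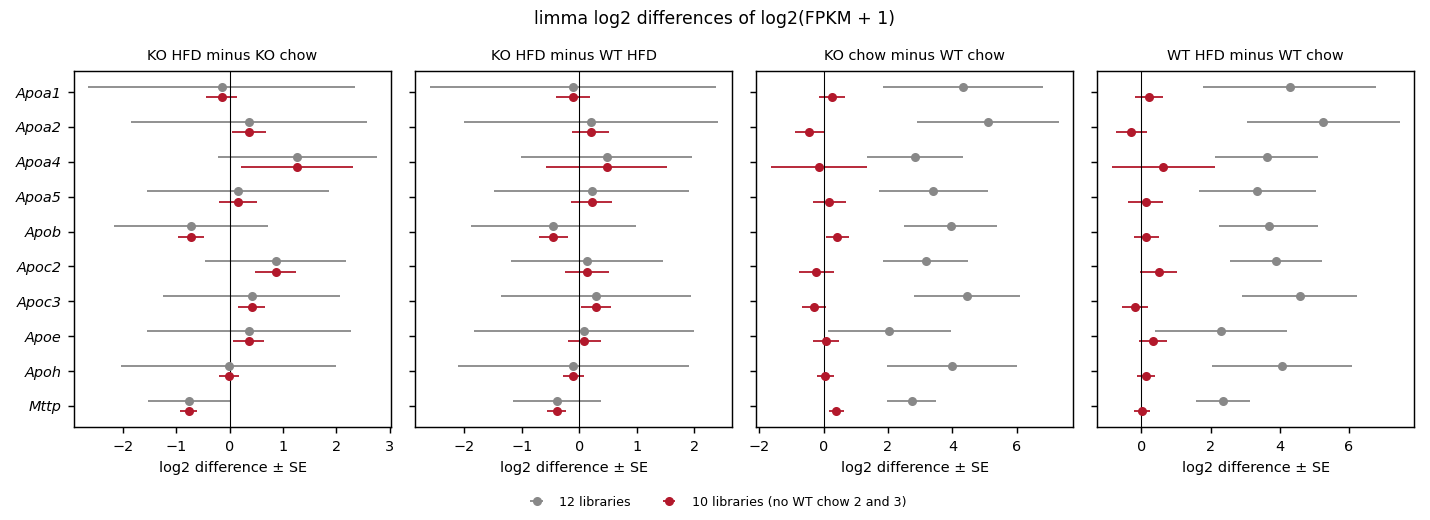
Log2 differences of log2(FPKM + 1) with SE from limma for each member in 4 comparisons, with 12 libraries (grey) and with the 10 without WT chow 2 and 3 (red). In the left panels both fits share a centre and differ in SE, for example 0.77 and 0.17 for Mttp in KO HFD minus KO chow; in the right panels the differences of 2.04 to 5.26 with 12 libraries move to between −0.45 and 0.64.

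The comparisons that use WT chow turned on WT chow 2 and 3. With 12 libraries all 10 members were higher by mean in KO chow than in WT chow, with log2 differences from 2.04 for Apoe to 5.10 for Apoa2 and a median of 3.68, against 0.08 over all genes. In limma 0 of 10 passed (0% of all genes), 5 members had an unadjusted p under 0.05 (21.1% of all genes), and limma-voom called 0. With 10 libraries, of which WT chow 1 alone stands for its group and is assumed to vary like the others, the 10 differences ran from −0.45 to 0.42, with a median of 0.06. Again 0 of 10 passed (0.00816% of all genes), with 0 members at an unadjusted p under 0.05 (2.8% of all genes). By overlap, Apob, Apoh and Mttp were higher in every KO chow library than in every WT chow library, where 12.4% of all genes were, and no member was lower in every one, where 4.43% were. For these genes too WT chow 1 alone decided the overlap, since WT chow 2 and 3 lay below all of the 10 libraries. The lowest KO chow level against WT chow 1 was 261 against 253 FPKM for Apob. It was 2096 against 2079 FPKM for Apoh and 44.0 against 38.6 FPKM for Mttp. Apob (0.42, SE 0.35) and Mttp (0.40, SE 0.23) had the highest differences of the members (limma on 10 libraries).

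The diet within wild type gave the same picture. With 12 libraries the members were higher in WT HFD than in WT chow by 2.31 (Apoe) to 5.26 (Apoa2), with a median of 3.79 against 0.02 over all genes. In limma 0 of 10 passed (0% of all genes), 6 members had an unadjusted p under 0.05 (14.7% of all genes), and limma-voom called 0. With 10 libraries the differences ran from −0.28 to 0.64, with a median of 0.14, and 0 of 10 passed (0.00816% of all genes), with 0 at an unadjusted p under 0.05 (2.38% of all genes). Mttp differed by 0.02 (SE 0.23) and Apob by 0.15 (SE 0.35). By overlap, Apoa1, Apob, Apoc2 and Apoh were higher in every WT HFD library than in every WT chow library, where 6.82% of all genes were, and no member was lower in every one, where 4.35% were. For these genes WT chow 2 and 3 lay below all of the 10 libraries, so WT chow 1 alone decided the overlap. The lowest WT HFD level against WT chow 1 was 11175 against 10685 FPKM for Apoa1 and 260 against 253 FPKM for Apob. It was 433 against 400 FPKM for Apoc2 and 2161 against 2079 FPKM for Apoh. Without WT chow 1, which leaves WT chow 2 and 3 as the group, 8 members passed in KO chow minus WT chow, all but Apoa1 and Apoe, where 24.3% of all genes did, and 7 passed in WT HFD minus WT chow, where 19.9% did. Mttp had the lowest adjusted p of the members, with 3.91 (adjusted p = 1.98e-05) and 3.53 (adjusted p = 3.80e-05) in limma.

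The members did not go down together in WT chow 2. Relative to the median of the 10 other libraries, Apoe was 2.28-fold higher there, at 56632 FPKM, and ranked 1st of all genes. Apoa1 stood at 0.760 of that median and Apoa5 at 0.395, and Apoh at 0.337. Apoa4, Apob, Mttp and Apoc2 stood at 0.148, 0.138, 0.1002 and 0.0940. Apoa2 and Apoc3 were the lowest, 25.7-fold and 39.4-fold under the median. The members in sum took 8.99% of the reads of WT chow 2, more than in any other library. Apoe alone held 1479025 of its 18843044 reads. By FPKM the share of the members in WT chow 2 was 9.70%, inside the 9.11 to 11.6% of the 10 libraries. The unequal change was also seen in listed apolipoproteins that are no members, with Apoc1 at 36941 FPKM in WT chow 2, against 6757 to 17475 FPKM in the 10 libraries. Apom, named after its values were seen, stood at 5.45 FPKM in WT chow 2, against 154 to 335 FPKM in the 10. In WT chow 3 the members took 0.0177% of reads, and Apoe at 113 FPKM and Apoc3 at 6.24 FPKM were the highest of them. These are single libraries, and no test was made of them.

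**Figure D4:**
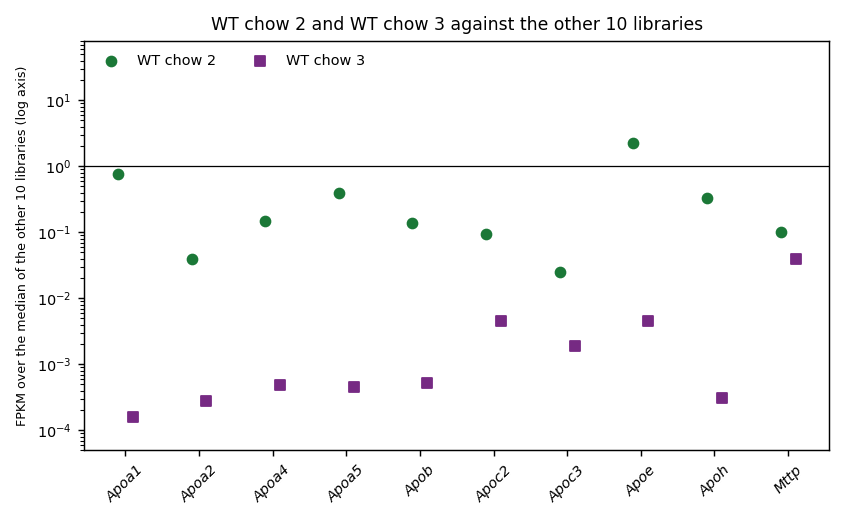
FPKM in WT chow 2 (circles) and WT chow 3 (squares) divided by the median of the other 10 libraries (log axis; 1 means equal). WT chow 2 runs from 0.0254 for Apoc3 to 2.28 for Apoe, and WT chow 3 from 1.60e-04 for Apoa1 to 0.0388 for Mttp.

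The interaction asks whether the diet difference depends on the genotype label. With 12 libraries 0 of 10 members passed in limma (0.122% of all genes, 1 member at an unadjusted p under 0.05 where 16.6% of all genes were, and 0 by limma-voom), although all 10 estimates were negative, from −4.89 for Apoa2 to −1.95 for Apoe. With 10 libraries 0 of 10 passed (0.0816% of all genes, 1 member at an unadjusted p under 0.05 where 10.2% of all genes were). Mttp had an interaction of −0.79 (SE 0.29, adjusted p = 0.463) and Apob of −0.87 (SE 0.43, adjusted p = 0.512, limma on 10 libraries). The median of the members was 0.03 in this fit, against −0.08 over all genes. Without WT chow 1, 5 members passed in the limma fit, Apoa2, Apob, Apoc2, Apoc3 and Mttp, where 18.5% of all genes did. By overlap, Apob was lower in every KO HFD than in every KO chow library and higher in every WT HFD than in every WT chow library, as were 1.85% of all genes. Apob and Mttp were lower in every KO HFD than in every WT HFD library and higher in every KO chow than in every WT chow library, as were 3.28% of all genes. In the comparisons with WT chow, WT chow 1 alone decided the overlap for both genes, since WT chow 2 and 3 lay below all of the 10 libraries.

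The rest of the pathway was followed in 6 lists with 58 genes, 54 of which were tested. In the limma fit of 12 libraries 0 of 54 passed in each of the 5 comparisons, as with limma-voom. At an unadjusted p under 0.05 there were 2 in KO HFD minus KO chow (7.54% of all genes), 0 in KO HFD minus WT HFD (1.27%), 19 in KO chow minus WT chow (21.1%), 17 in WT HFD minus WT chow (14.7%) and 10 in the interaction (16.6%). In the fit of 10 libraries 4 of 54 fell in KO HFD relative to KO chow and 0 rose, where 6.24% of all genes passed as lower, and 0 of 54 passed in each of the other 4 comparisons. At an unadjusted p under 0.05 these held 7 in KO HFD minus WT HFD (12.5% of all genes), 1 in KO chow minus WT chow (2.8%), 1 in WT HFD minus WT chow (2.38%) and 5 in the interaction (10.2%). These calls rested on single libraries: in the same fit, genes passing over the whole table numbered 951, but 18 without KO chow 1, 17 without KO chow 2 and 1535 without KO chow 3. Among 14 genes of VLDL assembly and secretion 2 fell. Mia2, which helps load large cargo into vesicles leaving the endoplasmic reticulum, stood at 8.13, 19.9 and 11.9 FPKM in KO HFD 1 to 3, against 47.6, 62.7 and 26.7 FPKM in KO chow 1 to 3 (log2 difference −1.71, SE 0.35, adjusted p = 0.0339). A1cf, a cofactor of the enzyme that edits Apob RNA, stood at 6.37, 8.84 and 6.13 FPKM, against 28.8, 33.9 and 13.3 FPKM in the same groups (−1.62, SE 0.30, adjusted p = 0.0334). Mia2 and A1cf were lower in every KO HFD than in every KO chow library, as were 14 of the 54 list genes and 21.6% of all genes. P4hb, the protein disulfide isomerase that is the partner subunit of the Mttp product, stood at −0.25 (adjusted p = 0.361) and Dgat2, a triglyceride synthase, at −0.08 (adjusted p = 0.757).

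In the other lists the picture was similar. Among the 4 sterol exporter genes listed, Abca1, Abcg1, Abcg5 and Abcg8, 1 fell. This was Abca1, with 9.20, 9.51 and 6.17 FPKM in KO HFD 1 to 3 and 14.9, 20.3 and 12.6 FPKM in KO chow 1 to 3 (−0.86, SE 0.20, adjusted p = 0.0401, limma on 10 libraries). Among 13 transcription regulators 1 fell, the fatty acid receptor gene Ppara, with 5.91, 19.7 and 9.94 FPKM in KO HFD 1 to 3 and 37.1, 35.6 and 21.9 FPKM in KO chow 1 to 3 (−1.45, SE 0.36, adjusted p = 0.0459, limma on 10 libraries). Hnf4a stood at −0.29 (SE 0.16, adjusted p = 0.258) and Creb3l3, which encodes a liver factor that acts on Apoa4, at 0.30 (adjusted p = 0.303). None of the 10 genes of plasma lipid processing, of the 8 tested receptors or of the 5 tested other apolipoproteins passed. Apoc1, the most abundant of these apolipoproteins, stood at 0.90 (SE 0.32, adjusted p = 0.101), Lcat, the cholesterol-esterifying enzyme of HDL, at −0.10, and the HDL receptor gene Scarb1 at 0.43 (limma on 10 libraries).

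The genes of most similar pattern were found by the root mean square difference of log2(FPKM + 1), each gene centred on its own mean, a description without a test. Over 10 libraries Mttp was nearest to Syne3 (0.0757), and Syne3 was also the second nearest to Apob (0.119), after Colec12 (0.111). For Apoc3 the nearest was Prdx1 (0.0715). For Apoa4, the member of widest spread, the nearest was Ubd at 0.408, against a median of 1.35 over all genes. Over all 12 libraries, where WT chow 2 and 3 dominate, Apoe was nearest to Agt (0.168) and Creb3l3 (0.172), and Apoa1 to Ttr (0.432). These points share the libraries and their depth.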

How the data were processed

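The authors deposited 1 table of FPKM values per gene and library for 12 libraries, with gene coordinates on GRCm38 (mm10), per the file headers. The submitters' processing notes list HTSeq 0.6.1, DESeq2 (as version 2), TopHat, STAR and CASAVA. The sources used here do not state what each did, the annotation, the filters or whether strand was counted. FPKM times gene length gave whole multiples of 1 read within 0.1 for nearly all values, so reads per gene could be recovered for limma-voom and library depth. All 12 value columns were mapped by name, and 34490 gene IDs matched a name.

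Values were taken as log2(FPKM + 1), a scale on which changes of low genes look smaller. The 12251 genes averaging at least 0.5 FPKM over the 12 libraries were kept, and the same genes were used in the fits of 10. Genes that passed only through WT chow 2 or 3 therefore stayed in those fits. Ucp1, for example, averaged 195 FPKM over 12 libraries and 0.323 FPKM over 10. limma 3.58.1 in R 4.3.3 fitted 4 group means to all 12 libraries with trended moderation, gave 5 contrasts and adjusted p over all genes by Benjamini-Hochberg at 0.05. The fit was tested on simulated data and repeated without WT chow 2 and 3. Python 3.11.15 with matplotlib 3.10.9 drew the figures. Libraries of a group differed beyond counting noise. Nothing in the sources used here says which animals they came from, so p-values measure the spread between these samples. The members and gene lists were chosen with earlier results of these data known. All members are named, and of the lists the genes that passed and the most abundant. Exon overlaps come from GENCODE M21 and promoter windows from RefSeq.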

Additional observations from a re-analysis of the deposited data

Results flagged for a closer look

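Apob and Mttp are listed because their groups of 3 separated in opposite directions, which 1.85% of all genes did in the same directions by diet and 3.28% by genotype label. On the WT chow side the separation was decided by WT chow 1, the highest of its group for both genes. It held 253 FPKM of Apob, against 260 FPKM in the lowest WT HFD library and 261 FPKM in the lowest KO chow library. Its Mttp level was 38.6 FPKM, against 44.0 FPKM in the lowest KO chow library. The size of the interactions with 12 libraries rests on WT chow 2 and 3. Every KO HFD library lay below every KO chow library for Apob, while every WT HFD library lay above every WT chow library, and the interaction was −4.40 (SE 2.03, adjusted p = 0.301, limma on 12 libraries). For the genotype, Apob was lower in every KO HFD library than in every WT HFD library and higher in every KO chow library than in every WT chow library, which is the same interaction of −4.40. Mttp separated in the same way by genotype, with an interaction of −3.13 (SE 1.08, adjusted p = 0.289, limma on 12 libraries). Neither interaction passed. Without WT chow 2 and 3 they were −0.87 (adjusted p = 0.512) for Apob and −0.79 (adjusted p = 0.463) for Mttp in limma.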

How the results depend on the processing

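The limits come first from WT chow, where 2 of 3 libraries do not resemble the others, and from groups of 3. Of 1640 log2 values of members under the alternatives, 1422 kept their sign and their side of the threshold, 25 were newly past it and 193 had the opposite sign, none of these past the threshold in either fit. The combinations with 10 libraries, apart from the plain fit and the one that also leaves out KO HFD 1, were chosen after seeing the data. For these reversals the cause was not tested, beyond that WT chow 2 and 3 are absent from most of them. TPM moved the median log2 difference of all genes to −0.23 in KO HFD minus KO chow and to −0.37 in the interaction, against −0.06 and −0.10.

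For Mttp in KO HFD minus KO chow, the adjusted p was 0.0371 with 10 libraries, 0.0168 as TPM, 0.0294 with limma-voom, 0.0797 with median-of-ratios scaling and 0.0640 with the replicate block, over a range of 0.0168 to 1 in all alternatives. Apob passed only as TPM (−0.92, adjusted p = 0.0441, limma on 10 libraries).

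Replicate numbers showed no clear pairing of the samples: over 18 pairs of equal number in different groups, r ran from −0.50 to 0.13, with 2 over 0.1. Pairs of unequal number reached 0.498, for KO HFD 1 with WT chow 2. The −0.50 and the 0.498 both involve WT chow, where WT chow 2 and 3 stand apart, so these values cannot decide on pairing. With 12 libraries the replicate block gave 4 genes in the interaction, against 15, and with 10 libraries it gave 31 genes in KO HFD minus KO chow, 1 in each WT chow comparison and 3 in the interaction.

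Counts of all genes called moved as follows. In KO HFD minus KO chow, against 19, there were 31 with no filter, 12 with limma-voom, 951 with 10 libraries, 39 without KO HFD 1 as well, 2231 with 10 libraries as TPM, 888 with median-of-ratios scaling and 1212 with limma-voom. There the lists gave 4, 11, 3 and 7 genes with 10 libraries, as TPM, with median-of-ratios scaling and with limma-voom, and members 1, 2, 0 and 1. In KO chow minus WT chow, against 0, there were 4 with no filter, 1 with 10 libraries, 3 without KO HFD 1 as well, 2 as TPM or with median-of-ratios scaling and 1 with limma-voom. In WT HFD minus WT chow, against 0, the same alternatives other than no filter gave 1, 3, 2, 2 and 1. In the interaction, against 15, there were 6 with a pseudocount of 0.1, 25 with no filter, 0 with limma-voom, 24 without WT chow 2 and 3 and KO HFD 1, and 2 with 10 libraries by limma-voom. Next, 1 library was left out of the 12, or 1 of the 10 other than WT chow 1 and KO HFD 1. These fits gave 14 to 1535 genes in KO HFD minus KO chow, 0 to 2981 in KO chow minus WT chow, 0 to 2435 in WT HFD minus WT chow and 5 to 2265 in the interaction, the last 3 maxima without WT chow 1 and 1535 without KO chow 3 and WT chow 2 and 3. With 10 libraries, KO HFD minus KO chow gave 396 without KO HFD 2, 88 without KO HFD 3, 31, 30 and 113 without WT HFD 1, 2 or 3. Over all fits with 1 library left out of the 12 or the 10, in the same order of comparisons, there were 0 to 1, 0 to 8, 0 to 7 and 0 to 5 members and 0 to 9, 0 to 20, 0 to 18 and 0 to 19 list genes, and 0 to 1 list gene in KO HFD minus WT HFD.

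With 10 libraries, log2 values of opposite sign were Apoa2 −0.45, Apoa4 −0.15, Apoc2 −0.23 and Apoc3 −0.30 in KO chow minus WT chow, Apoa2 −0.28 and Apoc3 −0.18 in WT HFD minus WT chow and Apoa2 0.65, Apoa4 0.63, Apoa5 0.034, Apoc2 0.36, Apoc3 0.59 and Apoe 0.022 in the interaction. With 9 libraries, also without KO HFD 1, log2 values of opposite sign were Apoh 0.0087 in KO HFD minus WT HFD, Apoa2 −0.45, Apoa4 −0.15, Apoc2 −0.23 and Apoc3 −0.30 in KO chow minus WT chow, Apoa2 −0.28 and Apoc3 −0.18 in WT HFD minus WT chow, Apoh 0.10 in KO HFD minus KO chow and Apoa2 0.82, Apoa4 0.38, Apoa5 0.11, Apoc2 0.37, Apoc3 0.71 and Apoe 0.053 in the interaction. With 10 libraries with limma-voom, log2 values of opposite sign were Apoa2 −0.45, Apoa4 −0.16, Apoc2 −0.23 and Apoc3 −0.30 in KO chow minus WT chow, Apoa2 −0.28 and Apoc3 −0.18 in WT HFD minus WT chow and Apoa2 0.65, Apoa4 0.63, Apoa5 0.034, Apoc2 0.36, Apoc3 0.58 and Apoe 0.020 in the interaction. With 10 libraries with median-of-ratios scaling, log2 values of opposite sign were Apoa2 −0.56, Apoa4 −0.27, Apoc2 −0.34, Apoc3 −0.42, Apoe −0.053 and Apoh −0.066 in KO chow minus WT chow, Apoa2 −0.32, Apoc3 −0.21 and Mttp −0.016 in WT HFD minus WT chow, Apoh 0.10 in KO HFD minus KO chow and Apoa2 0.81, Apoa4 0.79, Apoa5 0.19, Apoc2 0.52, Apoc3 0.75, Apoe 0.18 and Apoh 0.0029 in the interaction. With 10 libraries with the replicate block, log2 values of opposite sign were Apoa2 −0.52, Apoa4 −0.66, Apoc2 −0.53 and Apoc3 −0.50 in KO chow minus WT chow, Apoa2 −0.35, Apoc3 −0.37 and Mttp −0.053 in WT HFD minus WT chow and Apoa2 0.72, Apoa4 1.14, Apoc2 0.67, Apoc3 0.78 and Apoe 0.0082 in the interaction. With 10 libraries as TPM, log2 values of opposite sign were Apoe −0.035 in KO HFD minus WT HFD, Apoa2 −0.35, Apoa4 −0.061, Apoc2 −0.13 and Apoc3 −0.21 in KO chow minus WT chow, Apoa2 −0.26 and Apoc3 −0.16 in WT HFD minus WT chow, Apoa5 −0.034 in KO HFD minus KO chow and Apoa2 0.43, Apoa4 0.42, Apoc2 0.15 and Apoc3 0.37 in the interaction. With 12 libraries as TPM, log2 values of opposite sign were Apoe −0.035 in KO HFD minus WT HFD and Apoa5 −0.034 in KO HFD minus KO chow. With 12 libraries with median-of-ratios scaling, log2 values of opposite sign were Apoh 0.10 in KO HFD minus KO chow. For the ranges that follow, 1 library was left out of the 12, or 1 of the 10 other than WT chow 1 and KO HFD 1. In KO HFD minus WT HFD, these fits gave log2 ranges of Apoa1 −0.27 to 0.020, Apoa4 −0.41 to 1.80, Apoa5 −0.21 to 0.54, Apoc2 −0.23 to 0.49 and Apoh −0.18 to 0.0087. In KO chow minus WT chow, leaving out 1 library gave log2 ranges of Apoa2 −0.56 to 7.87, Apoa4 −0.36 to 4.33, Apoc2 −0.50 to 4.86, Apoc3 −0.51 to 6.83 and Apoe −0.70 to 3.78. In WT HFD minus WT chow, leaving out 1 library gave log2 ranges of Apoa2 −0.40 to 8.03, Apoa4 −0.69 to 5.12, Apoa5 −0.20 to 4.97, Apoc3 −0.26 to 6.95, Apoe −0.43 to 4.05 and Mttp −0.051 to 3.53. In KO HFD minus KO chow, these fits gave log2 ranges of Apoa5 −0.015 to 0.29 and Apoh −0.094 to 0.10. In the interaction, leaving out 1 library gave log2 ranges of Apoa2 −7.67 to 0.77, Apoa4 −3.85 to 1.96, Apoa5 −4.81 to 0.36, Apoc2 −4.73 to 0.71, Apoc3 −6.54 to 0.80 and Apoe −3.70 to 0.78.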
